A study of Mus musculus with 6 samples.

Results

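Genes of the kinetochore, the mitotic spindle, chromosome condensation and cytokinesis were compared between EpCAM+ plastic and full epithelial cancer cells of mouse cutaneous squamous cell carcinoma (cSCC). The set was a list of 41 gene symbols, each read from its brightest single-gene probe set, and 40 of them were measured among 17097 genes. Nuf2, a subunit of the Ndc80 kinetochore complex, had no probe set named for it alone and was dropped. EpCAM+ plastic cancer cells were sorted from 3 independent moderately or poorly differentiated tumors (MD/PD-SCCs), and full epithelial cancer cells from 3 independent well differentiated tumors (WD-SCCs). Both groups were taken as α6-integrin+CD45-EpCAM+ cells, so mesenchymal EpCAM-negative cells are outside the comparison. The carcinoma cells of the study go back to tumors of K14-HPV16 Tg/+ mice, which carry a viral oncogene transgene under a basal keratinocyte promoter, and WD-SCC lineages were passaged as grafts in nude mice. Each tumor gave 1 Affymetrix mouse expression array, and the labels name neither the lineage nor the host of each tumor.

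A dividing cell condenses its chromosomes with the condensin complex, builds a kinetochore on each centromere, captures the kinetochores with spindle microtubules, and then cuts itself apart at the midbody. The genes for these steps are expressed together late in the cell cycle. They are regulated largely through the DREAM and MuvB complexes, which bind a promoter element called the CHR, and through NF-Y, which binds the CCAAT box. Their transcripts are therefore commonly read as a measure of how many cells of a tumor are dividing. In bulk RNA such as this, fewer dividing cells and less transcript per dividing cell cannot be told apart.

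The promoters of several genes are printed here because the list is known for its shared promoter elements, and they show how 4 of the genes that rose compare in these letters with Cdk1 and Ccnb2. RefSeq (GRCm38.p6) promoters, running from 250 bases before to 50 bases after each transcription start, were found for 33 of the 41 listed genes. The CHR letters TTTGAA, on either strand, stood in 24 of these 33 genes (72.7%), against 20.2% of all 27025 genes with a promoter entry. The CCAAT letters, on either strand, stood in 23 of 33 (69.7%), against 41.1% of all. A stretch spelling TTTCCCGC, TTTCGCGC, TTTGCCGC or TTTGGCGC on either strand, the usual E2F letters, stood in 4 of 33 (12.1%), against 2.60% of all. Each motif was counted on its own, so that overlapping letters could count for both. In the sequences, capitals mark every CHR and CCAAT match, read as TTTGAA or TTCAAA and as CCAAT or ATTGG.
Cep55, chr19:38054734-38055033, plus strand: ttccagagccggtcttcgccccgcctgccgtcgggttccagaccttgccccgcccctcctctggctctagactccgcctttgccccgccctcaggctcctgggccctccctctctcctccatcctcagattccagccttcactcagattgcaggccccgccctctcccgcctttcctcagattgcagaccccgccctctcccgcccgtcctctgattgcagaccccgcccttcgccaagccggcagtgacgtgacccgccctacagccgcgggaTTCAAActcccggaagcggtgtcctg
Kif20b, chr19:34922108-34922407, plus strand: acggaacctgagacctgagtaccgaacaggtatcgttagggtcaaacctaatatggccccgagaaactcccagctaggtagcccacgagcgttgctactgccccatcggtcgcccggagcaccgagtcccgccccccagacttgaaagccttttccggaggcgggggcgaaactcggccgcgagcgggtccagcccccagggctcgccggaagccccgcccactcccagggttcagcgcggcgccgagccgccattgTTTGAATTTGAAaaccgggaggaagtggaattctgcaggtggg
Smc2, chr4:52438971-52439270, plus strand: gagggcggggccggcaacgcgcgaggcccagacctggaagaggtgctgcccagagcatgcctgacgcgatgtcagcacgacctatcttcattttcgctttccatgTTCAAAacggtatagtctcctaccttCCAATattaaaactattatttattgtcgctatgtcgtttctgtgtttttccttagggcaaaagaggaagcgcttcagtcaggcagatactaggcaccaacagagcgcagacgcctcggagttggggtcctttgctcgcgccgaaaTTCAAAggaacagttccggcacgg
Dsn1, chr2:157007026-157007325, minus strand: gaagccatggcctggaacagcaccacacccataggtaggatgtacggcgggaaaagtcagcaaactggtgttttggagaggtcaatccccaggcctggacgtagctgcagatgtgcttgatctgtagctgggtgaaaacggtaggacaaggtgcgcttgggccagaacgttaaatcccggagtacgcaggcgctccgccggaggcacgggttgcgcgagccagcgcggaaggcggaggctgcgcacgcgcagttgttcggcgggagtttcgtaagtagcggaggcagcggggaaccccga
Cdk1, chr10:69352863-69353162, minus strand: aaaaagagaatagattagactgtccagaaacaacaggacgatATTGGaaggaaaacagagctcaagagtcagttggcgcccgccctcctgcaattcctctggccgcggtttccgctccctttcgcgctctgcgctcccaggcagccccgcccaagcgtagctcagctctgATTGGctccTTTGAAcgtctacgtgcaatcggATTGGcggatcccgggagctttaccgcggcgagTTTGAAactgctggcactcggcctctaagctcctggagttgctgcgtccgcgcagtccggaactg
Ccnb2, chr9:70421505-70421804, minus strand: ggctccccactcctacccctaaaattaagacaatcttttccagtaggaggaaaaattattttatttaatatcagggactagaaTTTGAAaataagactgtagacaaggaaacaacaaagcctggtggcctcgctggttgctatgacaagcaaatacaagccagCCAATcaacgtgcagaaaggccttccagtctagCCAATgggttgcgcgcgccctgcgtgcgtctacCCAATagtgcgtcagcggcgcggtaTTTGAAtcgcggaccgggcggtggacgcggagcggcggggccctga
Dsn1 held neither CHR nor CCAAT letters in this window, Cep55 held 1 CHR match and no CCAAT match, and Kif20b held 2 CHR matches side by side. E2F letters, which are not in capitals, stood in the promoters of Dsn1 and Cdk1. Cdk1 and Ccnb2 each held 2 CHR matches and 3 CCAAT matches. Among the measured genes with a promoter entry, the 24 with the CHR letters had a median log2 fold change of 0.04 and included 3 genes that rose, and the 8 without them had a median of 0.09 and included 1. For the CCAAT letters, the 23 genes with them had a median of 0.0072 and included 1 that rose, and the 9 without them had a median of 0.20 and included 3. For the E2F letters, the 4 genes with them had a median of 0.03 and included 1 that rose. The 28 without E2F letters had a median of 0.08 and included 3.

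Most of the mitotic genes did not differ between the groups beyond the spread of the tumors. Cep55, Dsn1, Kif20b, Smc2 and Smc4 rose in EpCAM+ plastic cells, with log2 fold changes of 0.55 to 1.28. None of the 40 fell at an adjusted p under 0.05 in limma, and 35 did not pass in either direction. The share that rose, 5 of 40, stood beside 5.30% of all genes, and the share that fell beside 1.91% of all genes. Before adjustment, p was under 0.05 in limma for 11 higher and 2 lower genes, beside 14.9% and 9.01% of all genes. With a log2 fold change of at least 1 as well, 3 genes rose (Cep55, Dsn1 and Kif20b), beside 1.99% of all genes. The median log2 fold change over the 40 genes was 0.07, with a range of -0.36 to 1.28, beside a median of -0.02 over all genes. All 3 EpCAM+ plastic values lay above all 3 full epithelial values for 9 of the 40, beside 15.4% of all genes, and below them for 1 of the 40 (Spc24), beside 13.7% of all genes. Among genes with a mean above the background probe sets, 3 of 28 set genes rose, beside 784 of 7735 in the series. Before adjustment, 7 and 2074 of these were higher at p under 0.05 in limma. All EpCAM+ plastic values lay above for 6 and 2037. The median log2 fold change was 0.04 for these set genes and 0.09 for these genes of the series. The set was thus not shifted upward beside other genes above background. With a repeated quantile normalization of the arrays, the median over the 40 genes became -0.04 and 2 genes rose, Cep55 and Dsn1.

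**Figure D1:**
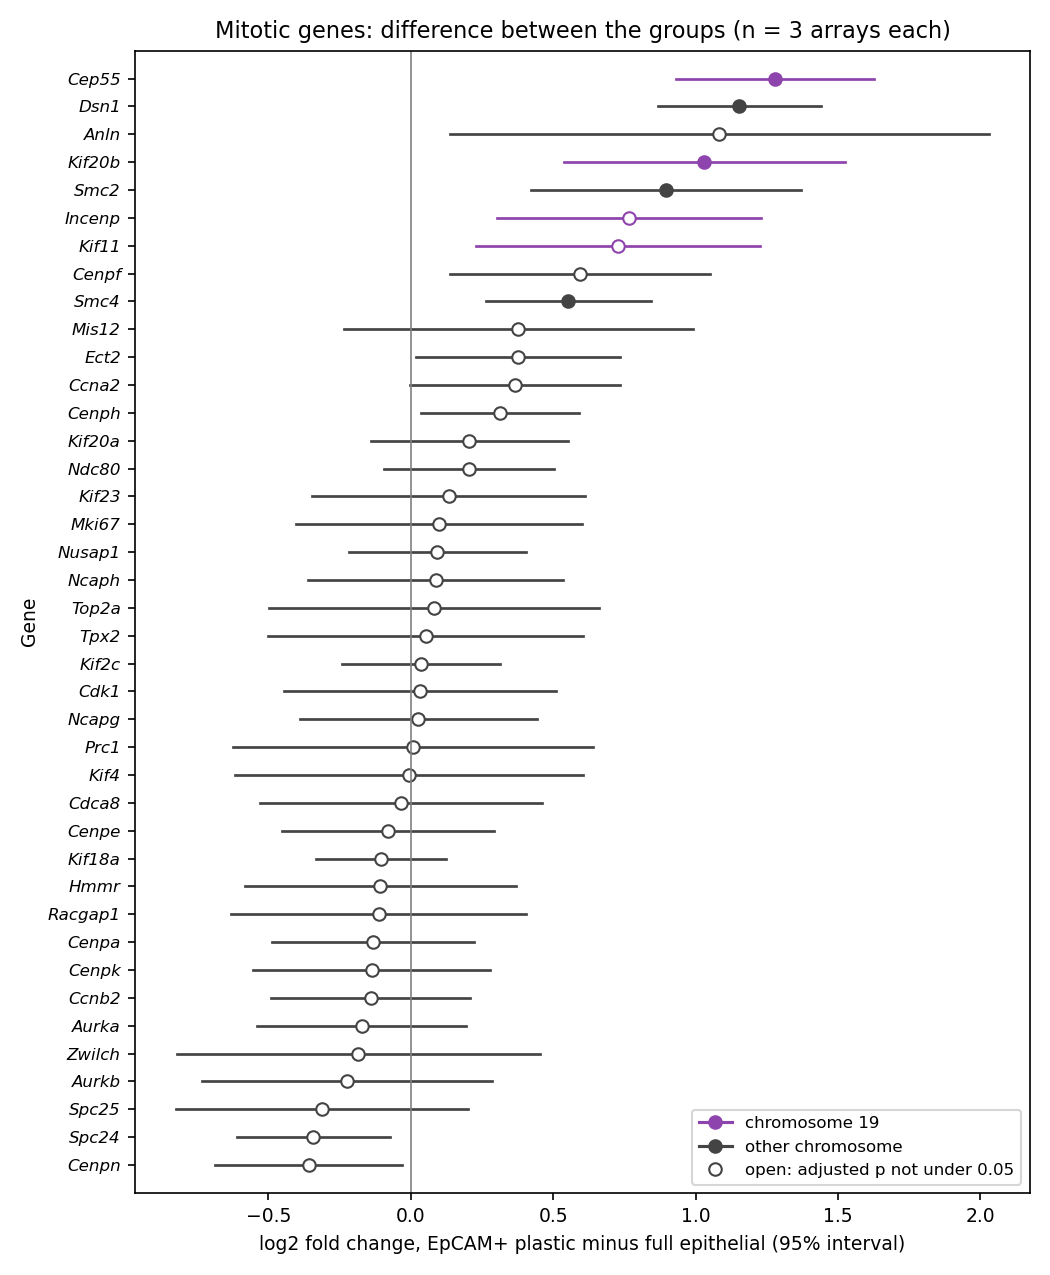
Log2 fold change (EpCAM+ plastic minus full epithelial) of the 40 measured mitotic genes, as points with 95% intervals from limma on 3 arrays per group; filled points passed an adjusted p under 0.05 and purple marks chromosome 19. The 5 genes that rose span 0.55 to 1.28, the 4 chromosome 19 genes are all among the highest 7, and most other intervals include 0.

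Among the 8 genes of cytokinesis, 2 rose (beside 5.30% of all genes), none fell (beside 1.91%), and the median log2 fold change was 0.29. Cep55 encodes the midbody protein that recruits the abscission machinery, and its log2 values were 6.22, 5.99 and 6.39 in EpCAM+ plastic replicates 1 to 3, against 4.93, 5.11 and 4.72 in full epithelial replicates 1 to 3. The groups were well apart. The log2 fold change was 1.28 (SE 0.15, adjusted p = 0.00983, limma). The full epithelial mean of 4.92 lay under the 95th percentile of the background probe sets (5.73), and the EpCAM+ plastic mean of Cep55 was 1.39-fold that level. Kif20b, a kinesin that acts in the completion of cytokinesis, stood at 6.74, 6.16 and 6.66 in EpCAM+ plastic cells, against 5.69, 5.63 and 5.14 in full epithelial cells. EpCAM+ plastic replicate 2 was the lowest of its group and still above every full epithelial tumor. Its log2 fold change was 1.03 (SE 0.21, adjusted p = 0.0388), and its dimmer probe set gave 1.20 (adjusted p = 0.0808). Its full epithelial mean of 5.49 was also in the background range, and its EpCAM+ plastic mean was 1.73-fold the background level.

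Anln, which encodes the contractile ring scaffold anillin, showed a difference of similar size that did not pass. Its log2 values were 6.90, 6.30 and 6.65 in EpCAM+ plastic cells, against 5.19, 6.48 and 4.92 in full epithelial cells. Full epithelial replicate 2 lay within the range of the EpCAM+ plastic tumors and far above the other two of its own group, and the log2 fold change was 1.08 (SE 0.40, adjusted p = 0.178). Without that tumor, the log2 fold change of Anln was 1.56 (adjusted p = 0.0268). On all 6 arrays its dimmer probe set, in the background range, gave 0.15 (adjusted p = 0.484), and the groups overlapped. Ect2, the exchange factor that activates RhoA at the cleavage furrow, had a log2 fold change of 0.38 (adjusted p = 0.214) from a probe set in the range of the background probes. The other cytokinesis genes differed by less than their spread. These were Kif20a (0.21, adjusted p = 0.489), Kif23 (0.13, adjusted p = 0.766) and Prc1 (0.01, adjusted p = 0.991), which encode kinesins and a crosslinker of the central spindle. Racgap1 encodes the partner of the Kif23 protein in centralspindlin, and its log2 values were 7.27, 6.68 and 7.28 in EpCAM+ plastic cells, against 6.85, 7.46 and 7.27 in full epithelial cells. The ranges overlapped almost fully (log2 fold change -0.11, SE 0.22, adjusted p = 0.821).

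Of the 6 genes of condensin and the chromosome periphery, 2 rose and none fell in limma (0 lower at an unadjusted p under 0.05), with a median log2 fold change of 0.09. Over all genes, 5.30% rose and 1.91% fell. Smc2 and Smc4 encode the pair of ATPase arms common to both condensins, and both rose. Smc2 stood at 7.73, 7.35 and 7.98 in EpCAM+ plastic cells, against 6.54, 7.07 and 6.76 in full epithelial cells, with no overlap. Its log2 fold change was 0.90 (SE 0.20, adjusted p = 0.04996). The call was close to the threshold. Of the 4 Smc2 probe sets 3 passed, with log2 fold changes of 0.90 to 1.38, and the second brightest did not (0.14, adjusted p = 0.650). Smc4, the brightest gene of the set, stood at 10.04, 9.82 and 10.04 in EpCAM+ plastic cells, against 9.28, 9.60 and 9.35 in full epithelial cells. The groups did not overlap, the log2 fold change was 0.55 (SE 0.12, adjusted p = 0.0492), and 2 of its 3 probe sets passed.

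Ncapg and Ncaph, which encode non-SMC subunits of condensin I, did not pass, with log2 fold changes of 0.03 (95% interval -0.39 to 0.44) and 0.09 (95% interval -0.36 to 0.53). Within each array, and set to a mean of 0 in full epithelial cells, the log2 difference Smc2 minus Ncapg was 0.98, 0.70 and 0.92 in EpCAM+ plastic cells, against 0.08, 0.13 and -0.21 in full epithelial cells. Smc4 minus Ncapg was 0.66, 0.55 and 0.37 in EpCAM+ plastic cells, against 0.19, 0.04 and -0.23 in full epithelial cells. Both differences were higher in every EpCAM+ plastic tumor than in any full epithelial tumor. They were chosen after the values were seen and carry no test. Among the 16 measured genes of cohesin and of the other condensin subunits, limma called 0 higher and 0 lower (5 and 2 at an unadjusted p under 0.05), with a median log2 fold change of 0.13. With the mean of a gene's probe sets, 1 of them, Smc3, rose by 0.70 (adjusted p = 0.0298).

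**Figure D2:**
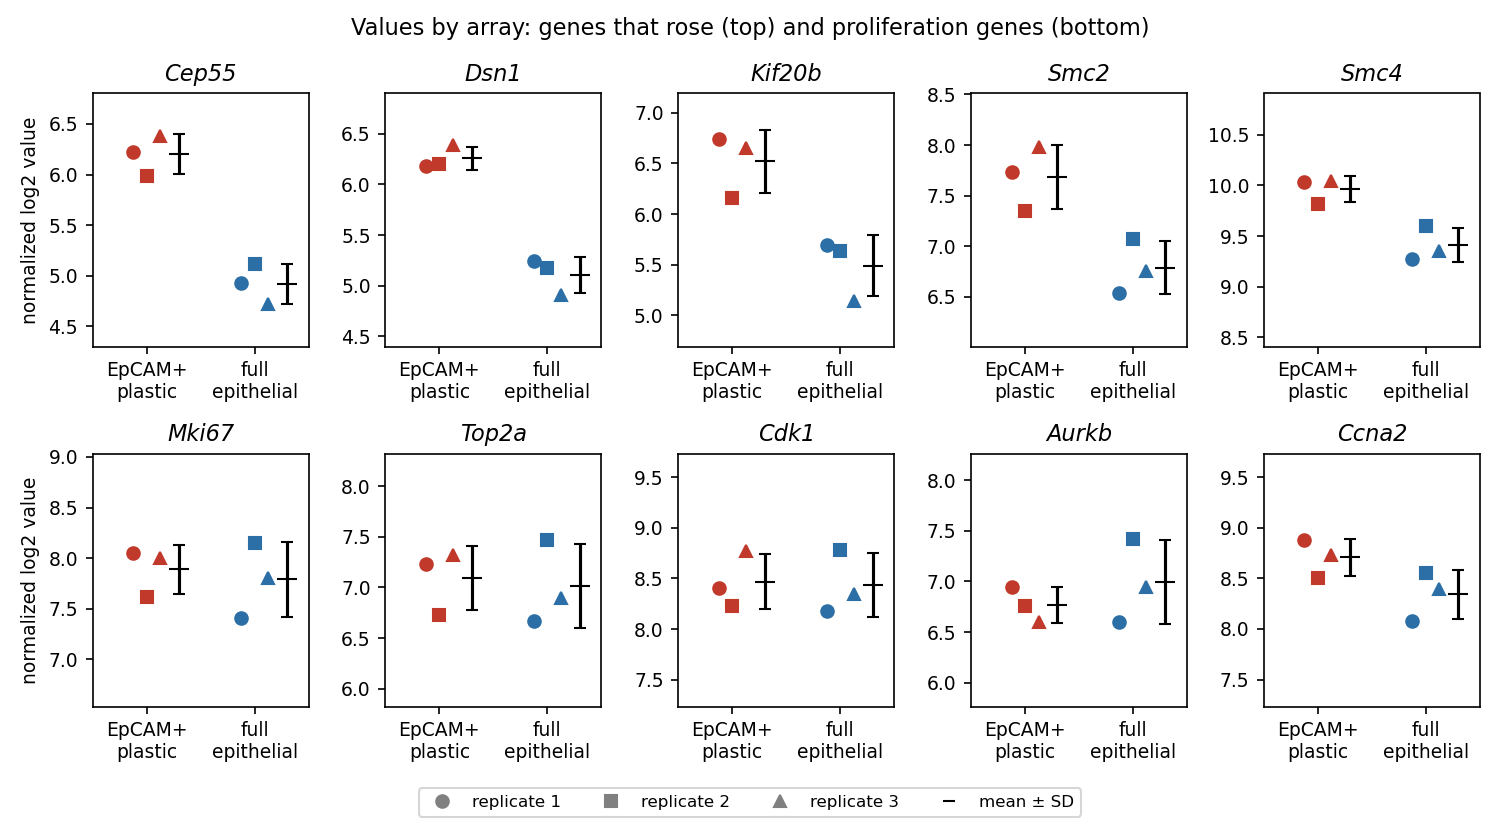
Normalized log2 values of the 5 genes that rose (top) and of 5 proliferation genes (bottom) on each array, EpCAM+ plastic in red and full epithelial in blue, with the mean ± SD (n = 3) beside the points; every panel spans the same number of log2 units. The groups are apart in the top row and overlap in the bottom row, where full epithelial replicate 2 is the highest tumor of its group.

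The genes most used as proliferation readouts overlapped between the groups. Mki67, which encodes the chromosome periphery protein Ki-67, stood at 8.051, 7.612 and 8.005 in EpCAM+ plastic cells, against 7.409, 8.152 and 7.809 in full epithelial cells. The highest and the lowest of the 6 tumors were both full epithelial, and the log2 fold change was 0.10 (95% interval -0.40 to 0.60, adjusted p = 0.839). Top2a encodes the topoisomerase that disentangles sister chromatids, and its log2 values were 7.24, 6.73 and 7.32 in EpCAM+ plastic cells, against 6.67, 7.47 and 6.90 in full epithelial cells. Here too a full epithelial tumor was at each end, with a log2 fold change of 0.08 (95% interval -0.50 to 0.66, adjusted p = 0.888). Both signs turned with a repeated quantile normalization, to -0.01 for Mki67 and -0.05 for Top2a.

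Cdk1, the kinase that drives entry into mitosis, had log2 values of 8.40, 8.23 and 8.77 in EpCAM+ plastic cells, against 8.18, 8.79 and 8.34 in full epithelial cells. The ranges were nearly the same, and the log2 fold change was 0.03 (95% interval -0.44 to 0.51, adjusted p = 0.948), or -0.01 with a repeated quantile normalization. Ccna2, which encodes cyclin A2, stood at 8.88, 8.51 and 8.73 in EpCAM+ plastic cells, against 8.08, 8.55 and 8.39 in full epithelial cells. Only full epithelial replicate 2 reached into the EpCAM+ plastic range (log2 fold change 0.37, SE 0.15, adjusted p = 0.239). A dimmer Ccna2 probe set did pass, with a log2 fold change of 0.64 (adjusted p = 0.0432). Ccnb2, which encodes cyclin B2, had a log2 fold change of -0.14 (adjusted p = 0.654).

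The chromosomal passenger complex carries the kinase Aurora B to centromeres and later to the midzone, and neither Aurka nor any of the 3 subunits in the set passed in limma (before adjustment, p was under 0.05 for 1 higher and 0 lower). Incenp, the scaffold subunit, stood at 7.57, 7.18 and 7.83 in EpCAM+ plastic cells, against 6.57, 7.03 and 6.67 in full epithelial cells. The groups did not overlap, but the log2 fold change of 0.77 (SE 0.19) did not pass (adjusted p = 0.0724), while a slightly dimmer Incenp probe set, also at 0.77, did (adjusted p = 0.0423). The dimmest Incenp probe set, in the background range, gave -0.003 (adjusted p = 0.989). Aurkb, read from a probe set that the array maker marks as shared between transcripts, stood at 6.95, 6.75 and 6.60 in EpCAM+ plastic cells, against 6.60, 7.42 and 6.95 in full epithelial cells. Its log2 fold change was -0.22 (95% interval -0.73 to 0.28, adjusted p = 0.619), with wide overlap.

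Cdca8, which encodes borealin, had log2 values of 7.97, 7.34 and 7.86 in EpCAM+ plastic cells, against 7.57, 8.08 and 7.63 in full epithelial cells. Again the groups overlapped (log2 fold change -0.03, SE 0.21, adjusted p = 0.948). Incenp minus Cdca8, set to a mean of 0 in full epithelial cells, was 0.59, 0.84 and 0.97 in EpCAM+ plastic cells, against 0.00, -0.05 and 0.05 in full epithelial cells. This difference, which was also picked after the values were seen, was the steadiest among full epithelial tumors of the 8 such differences computed. Aurka, the Aurora kinase of the spindle poles, had a log2 fold change of -0.17 (adjusted p = 0.592).

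At the outer kinetochore, which binds the microtubule ends, 1 of 8 genes rose, beside 5.30% of all genes. Dsn1, a subunit of the Mis12 complex that links the centromere to Ndc80, stood at 6.19, 6.20 and 6.39 in EpCAM+ plastic cells, against 5.24, 5.17 and 4.91 in full epithelial cells. Both groups were tight, and the log2 fold change was 1.15 (SE 0.12, adjusted p = 0.00821), the smallest adjusted p of the set. The background level was above the full epithelial mean of 5.11, and the EpCAM+ plastic mean of Dsn1 was 1.44-fold that level. Mis12 itself had a log2 fold change of 0.38 (adjusted p = 0.471), with the highest value, 6.40, in EpCAM+ plastic replicate 2. Dsn1 minus Mis12, set to a mean of 0 in full epithelial cells, was 0.98, 0.17 and 1.18 in EpCAM+ plastic cells, against -0.20, 0.25 and -0.06 in full epithelial cells, and the groups overlapped. Cenpf, a large kinetochore and nuclear matrix protein, stood at 6.48, 6.19 and 6.30 in EpCAM+ plastic cells, against 5.85, 6.02 and 5.32 in full epithelial cells. The groups were apart but close (log2 fold change 0.60, SE 0.19, adjusted p = 0.133), and its other probe sets gave 0.19 and -0.18.

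None of the measured subunits of the Ndc80 complex passed, and Nuf2 was not measured. Spc24 stood at 6.12, 6.07 and 6.09 in EpCAM+ plastic cells, against 6.25, 6.43 and 6.62 in full epithelial cells. By brightest probe sets, it was the only gene of the set with every EpCAM+ plastic value below every full epithelial value. A dimmer probe set each of Cenpa, Cenpn and Cenpf was also lower throughout, and none of these passed. The log2 fold change of Spc24 was -0.34 (SE 0.11) and did not pass (adjusted p = 0.142). Spc25 had log2 values of 4.58, 4.77 and 4.01 in EpCAM+ plastic cells, against 5.01, 4.71 and 4.57 in full epithelial cells. These overlapped and lay in the background range (log2 fold change -0.31, SE 0.22, adjusted p = 0.479). Ndc80 (0.20, adjusted p = 0.418), the kinesin gene Cenpe (-0.08, adjusted p = 0.822) and Zwilch (-0.18, adjusted p = 0.755), a subunit of the complex that brings the checkpoint proteins and dynein to kinetochores, did not pass either.

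None of the 4 centromere genes passed in limma (before adjustment, p was under 0.05 for 1 higher and 1 lower). Cenpn, which encodes a reader of the centromeric nucleosome, stood at 5.60, 5.89 and 5.71 in EpCAM+ plastic cells, against 6.26, 5.85 and 6.16 in full epithelial cells. It had the lowest log2 fold change of the set, -0.36 (SE 0.14, adjusted p = 0.199), and full epithelial replicate 2 overlapped the other group. Cenpa encodes the centromeric histone H3 variant, and its log2 fold change was -0.13 (adjusted p = 0.683) from the brighter probe set and -0.63 (adjusted p = 0.0766) from the dimmer one. Cenph and Cenpk, which encode partners in the inner kinetochore, had log2 fold changes of 0.31 (adjusted p = 0.183) and -0.14 (adjusted p = 0.718).

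No spindle gene passed among 7 in limma (before adjustment, p was under 0.05 for 1 higher and 0 lower). Kif11, the bipolar kinesin that pushes the spindle poles apart, stood at 7.06, 6.67 and 7.12 in EpCAM+ plastic cells, against 6.23, 6.58 and 5.85 in full epithelial cells. The groups were separated only narrowly, by EpCAM+ plastic replicate 2 and full epithelial replicate 2, and the log2 fold change was 0.73 (SE 0.21, adjusted p = 0.100). In the dimmer Kif11 probe set the groups overlapped (0.58, adjusted p = 0.162). Tpx2, which nucleates spindle microtubules and activates Aurora A, had log2 values of 7.545, 7.413 and 7.521 in EpCAM+ plastic cells, against 7.079, 7.999 and 7.243 in full epithelial cells. The steady EpCAM+ plastic values fell inside the full epithelial range (log2 fold change 0.05, SE 0.23, adjusted p = 0.929), or -0.07 with a repeated quantile normalization, and a dimmer probe set passed with 0.57 (adjusted p = 0.0422).

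Hmmr, which encodes a microtubule-binding hyaluronan receptor, was read from a probe set marked as open to cross-hybridization. Its log2 values were 5.53, 5.11 and 5.63 in EpCAM+ plastic cells, against 5.28, 5.43 and 5.88 in full epithelial cells, with a log2 fold change of -0.11 (SE 0.20, adjusted p = 0.814). The kinesin genes Kif2c (0.04) and Kif4 (-0.01) and the spindle gene Nusap1 (0.09) had log2 fold changes near 0, with adjusted p of 0.894, 0.991 and 0.746. Kif18a, a kinesin that limits chromosome oscillation, had values of 2.88 to 3.12 on the 6 arrays, which is the level of the background probes, so that nothing can be read from it.

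**Figure D3:**
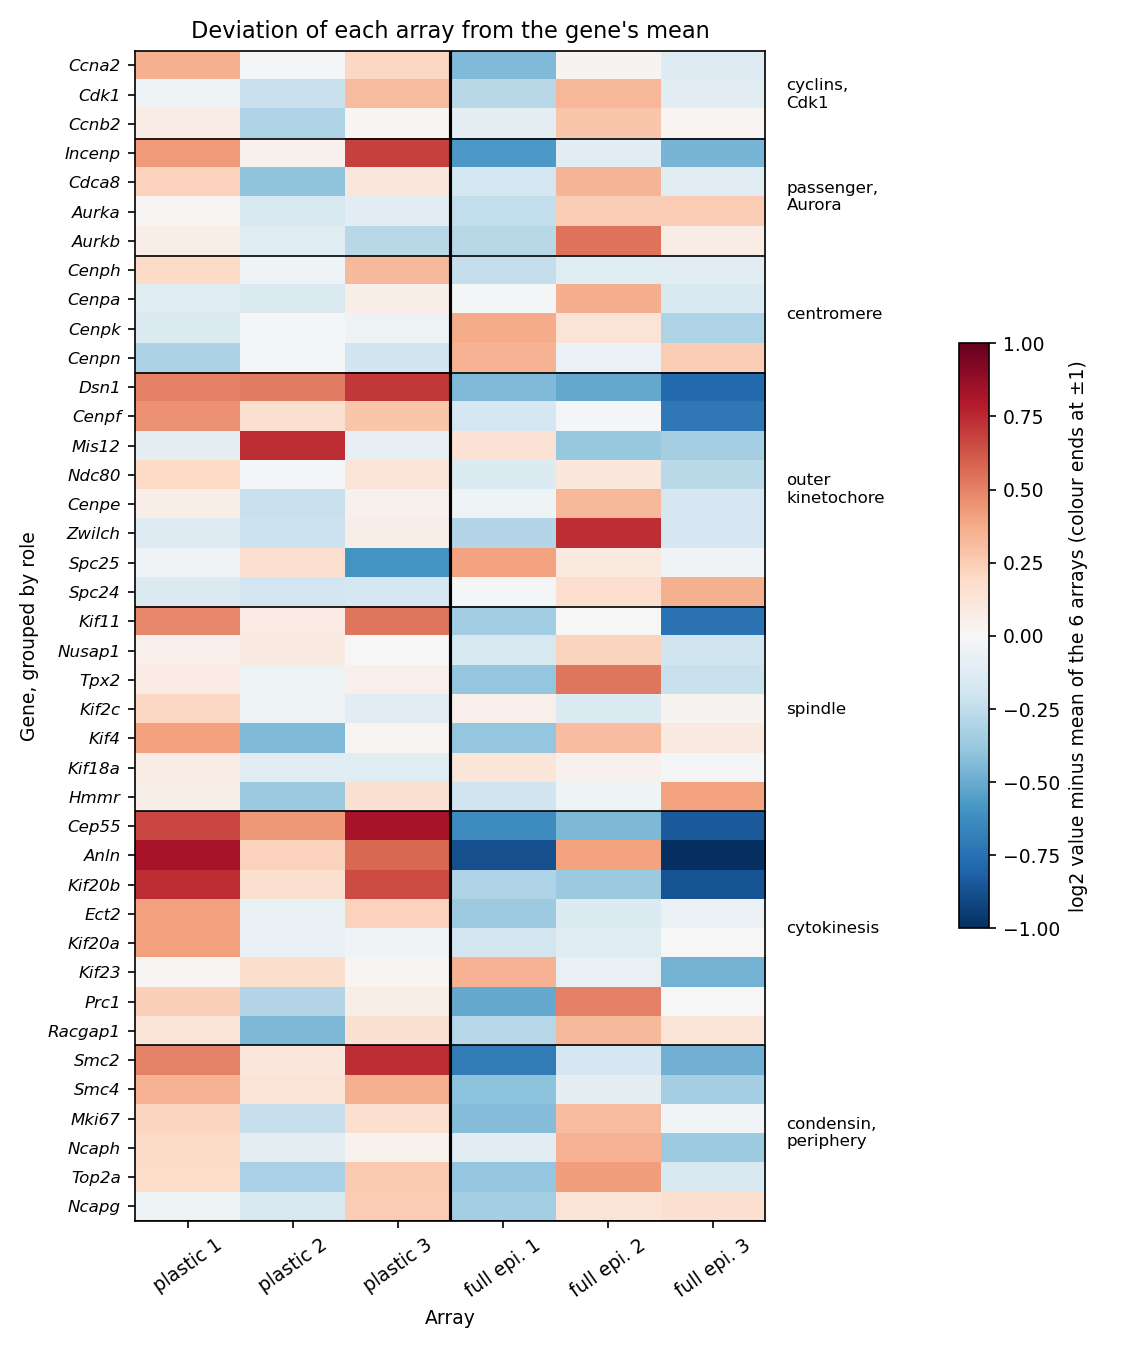
Log2 value of each array minus the gene's mean over the 6 arrays, for the 40 genes in rows grouped by role, with the 3 EpCAM+ plastic arrays left of the 3 full epithelial arrays. Full epithelial replicate 2 is red in many rows and EpCAM+ plastic replicate 2 pale or blue, while the rows of Cep55, Dsn1, Kif20b, Smc2 and Smc4 are red on the left and blue on the right.

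For most of the genes, tumors of 1 group lay farther apart than the group means. The range over the 3 tumors had a median over the 40 genes of 0.38 log2 units in EpCAM+ plastic cells and 0.51 in full epithelial cells, and the size of the difference between group means had a median of 0.18. That difference exceeded the wider of the ranges for 6 of the 40 genes, which were the 5 that rose and Incenp. The same count over all genes was not made, and the limma calls rest on these same differences and spreads. The median log2 value of the 40 genes was 6.67, 6.39 and 6.62 in EpCAM+ plastic replicates 1 to 3, against 6.26, 6.49 and 6.20 in full epithelial replicates 1 to 3. EpCAM+ plastic replicate 2 was the lowest of its group for 30 of the 40 genes, beside 39.0% of all genes. Full epithelial replicate 2 was the highest of its group for 24 of the 40, beside 36.3% of all genes, and the highest of all 6 tumors for 14. Full epithelial replicate 1 was the lowest of all 6 for 16. Without full epithelial replicate 2, the median log2 fold change was 0.22 and 4 genes passed, Anln, Cep55, Dsn1 and Smc4. In that fit 565 of all 17097 genes rose, beside 906 with all arrays.

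EpCAM+ plastic replicate 2 was the highest of the 6 tumors for 5 of the 10 fibroblast markers (Postn, Col1a1, Col3a1, Dcn and Pdgfrb) and the lowest for 1 (Pdgfra). Postn, a matricellular protein of fibroblasts, stood at 4.82, 7.61 and 4.71 in EpCAM+ plastic cells, against 4.48, 5.02 and 5.03 in full epithelial cells. The mean log2 level of the 10 fibroblast markers was 4.57 to 5.57 in EpCAM+ plastic cells, with the highest value in replicate 2, and 4.86 to 5.11 in full epithelial cells. Its part in the lower mitotic values of that tumor was not tested. Without EpCAM+ plastic replicate 2, 5 genes passed, Cep55, Dsn1, Incenp, Kif20b and Smc2, and 830 of all 17097 genes rose.

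All 8 epithelial markers were above background. Epcam and Itga6, which encode the sorted surface proteins, averaged 10.99 and 9.61 in EpCAM+ plastic cells, against 10.69 and 9.06 in full epithelial cells (adjusted p = 0.347 and 0.416). Krt5 and Krt14 stood above 11.8 on every array. Krt18, a simple-epithelial keratin, rose by 1.69 (adjusted p = 0.0349), and its partner Krt8 had a log2 fold change of -1.33 (adjusted p = 0.212). The leukocyte gene Ptprc was at background (2.93 to 2.96 in EpCAM+ plastic cells and 2.90 to 3.00 in full epithelial cells). Cd68, a macrophage marker, stood at 7.67 to 8.57 in EpCAM+ plastic cells, against 8.501 to 9.41 in full epithelial cells (log2 fold change -0.92, adjusted p = 0.148). Of the other-cell markers, 4 of 14 leukocyte, 2 of 10 fibroblast, 0 of 10 endothelial and pericyte, and 1 of 6 melanocyte genes were above background. The mean log2 level ran from 4.61 to 4.75 in EpCAM+ plastic cells and from 4.76 to 4.82 in full epithelial cells for the leukocyte list. For the endothelial and pericyte list it ran from 4.29 to 4.50 in EpCAM+ plastic cells and from 4.47 to 4.56 in full epithelial cells. The melanocyte list had 4.57 to 4.65 in EpCAM+ plastic cells and 4.58 to 4.85 in full epithelial cells. None of these other-cell markers passed in limma (3 leukocyte and 1 endothelial or pericyte gene were lower at an unadjusted p under 0.05).

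By brightest probe sets, the 4 genes of the set that lie on chromosome 19 were all higher in every EpCAM+ plastic tumor than in any full epithelial tumor. They are Cep55, Kif20b, Incenp and Kif11, of which 2 rose, with log2 fold changes of 0.73 to 1.28 and a median of 0.90. The other 36 genes had a median of 0.04, and 3 of them rose. Over the whole chromosome, 17.6% of 568 genes rose, 0.176% fell, the EpCAM+ plastic values were all above for 34.7%, and the median log2 fold change was 0.11. With a repeated quantile normalization the medians were 0.80 for the 4 genes and -0.06 for the other 36. Smc2 lies on chromosome 4, where 8.95% of 1028 genes rose.

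The genes next to each of these were not alike. The 24 nearest measured genes, 12 on each side in the RefSeq order, had a median log2 fold change of 0.37 around Incenp, with 7 of them higher. Around Kif20b the median was 0.10 (5 higher), around Cep55 0.01 (4 higher) and around Kif11 -0.0045 (6 higher). Around Dsn1 on chromosome 2 it was 0.04, with 0 higher and 1 lower, and around Smc2 it was 0.00 with 4 higher. Over the 40 genes, a gene's own log2 fold change and the median of its neighbours had a rank correlation (Spearman) of 0.61, and over the 36 genes off chromosome 19 of 0.60. The same measure over 16923 genes was 0.19. All points come from the same 6 arrays, some neighbourhoods overlap, and the correlation was looked at after the values were seen, so it stands as a description.

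**Figure D4:**
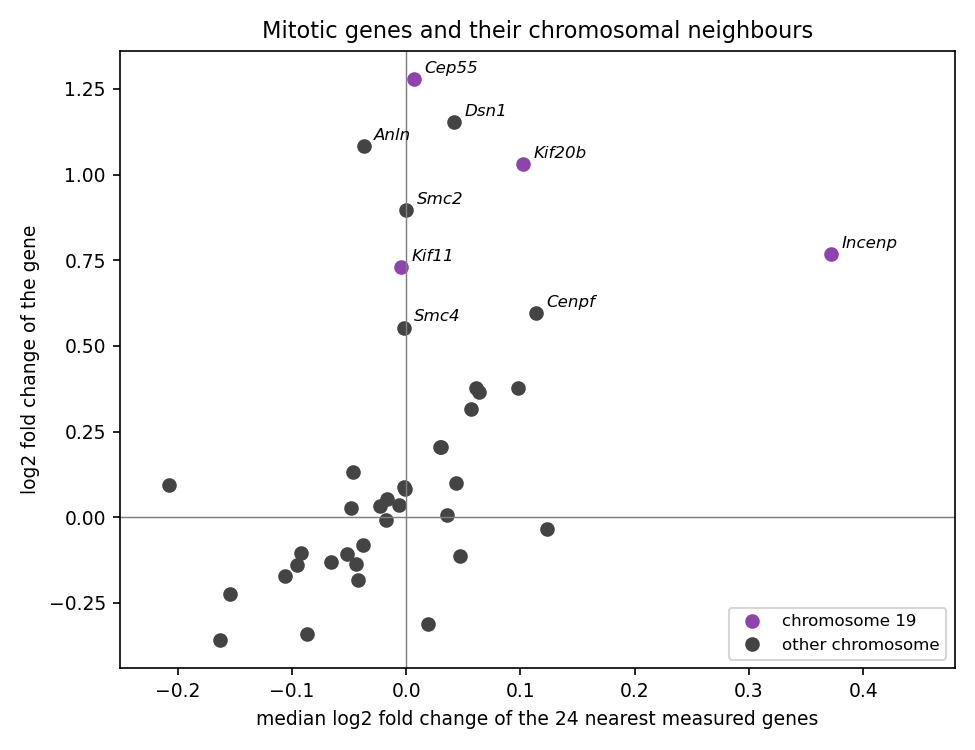
Log2 fold change (EpCAM+ plastic minus full epithelial) of each of the 40 mitotic genes against the median log2 fold change of its 24 nearest measured genes, with chromosome 19 in purple. Incenp has the highest neighbour median (0.37), whereas Cep55, Dsn1, Smc2, Smc4 and Kif11 lie above neighbours whose median is close to 0.

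Signal limits the reading of the dimmer genes. The means of both groups were above the background level for 24 of the 40 genes, of which Smc2 and Smc4 rose. For 6 genes only the EpCAM+ plastic mean was above it, namely Cep55, Dsn1, Anln, Kif20b, Cenpf and Mis12, and 3 of these rose. Ccnb2 was above it only in full epithelial cells. Neither mean was above it for the other 9, which were Ect2, Cenph, Kif23, Nusap1, Kif4, Kif18a, Hmmr, Cenpk and Spc25, so that their log2 differences carry little information. Kif20b, Smc2 and Smc4 lost their calls with a repeated quantile normalization (adjusted p = 0.0572, 0.0931 and 0.0741), as they did when any of EpCAM+ plastic replicates 1 or 3 or full epithelial replicates 1 or 3 was left out, each of which left 2 genes, Cep55 and Dsn1. Those fits with a tumor left out called 183 to 471 of all 17097 genes higher, beside 906 with all arrays.

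Other genes of mitosis and of the cell cycle were listed for context. The counts in these lists stand beside 5.30% of all genes higher and 1.91% lower. Of the 7735 genes above background, 784 rose and 264 fell, with a median log2 fold change of 0.09. Among 23 measured genes of the spindle checkpoint and the anaphase-promoting complex (APC/C), 5 rose and 2 fell, with a median log2 fold change of 0.14. With a repeated quantile normalization 3 rose and 2 fell, and with 1 tumor left out 0 to 3 rose and 1 to 2 fell. Cdc20, the activator of the APC/C, stood at 8.26, 7.97 and 7.66 in EpCAM+ plastic cells, against 10.49, 10.93 and 10.52 in full epithelial cells, a gap far wider than the spread of either group. It fell by 2.68 on the log2 scale (SE 0.19, adjusted p = 0.00381), whereas no gene of the mitotic set differed by as much. Trip13, an ATPase that dismantles the checkpoint complex, rose by 1.03 (adjusted p = 0.0118), as did the APC/C subunit genes Anapc11 (0.75, adjusted p = 0.0243) and Anapc4 (0.87, adjusted p = 0.0246). Ttk, the checkpoint kinase Mps1, fell by 0.73 (adjusted p = 0.0462). With the mean of a gene's probe sets, 3 genes of this list rose and 1 fell. Trip13 then rose by 0.39 and Anapc4 by 0.81, and Anapc11 and Ttk no longer passed.

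Among 21 genes of mitotic entry and its transcription, Cdc25b, a phosphatase that activates Cdk1, fell by 0.87 (adjusted p = 0.0155), and none rose in limma. At an unadjusted p under 0.05, 7 were higher and 5 lower, beside 14.9% and 9.01% of all genes. With the mean of a gene's probe sets, E2f1 (0.57, adjusted p = 0.0203) and E2f7 (0.37, adjusted p = 0.0441) rose, and Cdc25b still fell. Of 30 other centromere and kinetochore genes, 2 rose, Ska2 (0.68, adjusted p = 0.0341) and Zwint (0.77, adjusted p = 0.0441), both at the outer kinetochore. Of 31 other spindle and centrosome genes, Stmn1, a microtubule destabilizer, rose by 0.86 (adjusted p = 0.0363), and of 21 other cytokinesis genes, Septin9 rose by 0.75 (adjusted p = 0.0135). None fell in these 3 lists in limma (1, 2 and 2 at an unadjusted p under 0.05), and their medians were 0.01, 0.13 and -0.11. With a repeated quantile normalization Ska2, Zwint and Stmn1 no longer passed and 1 cytokinesis gene, Vps4a, fell. With the mean of a gene's probe sets Ska2, Zwint, Stmn1 and Septin9 still passed, and the cytokinesis genes Myh9 (0.68) and Rock1 (0.70) rose as well. With 1 tumor left out, Septin9 passed in 5 of 6 fits, Cdc25b in 4, Zwint and Stmn1 in 2, and Ska2 in 1.

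Of 44 measured genes of DNA replication, 9 rose and 1 fell, with a median log2 fold change of 0.34. Of the 7735 genes above background, 784 rose and 264 fell, with a median of 0.09. Rpa3, Fen1 and Pola1 were among those that rose, but both group means of each lay in the background range. The full epithelial mean of Pola2, which also rose, lay there too. Pole2, a subunit of DNA polymerase epsilon, rose by 1.07 (adjusted p = 0.0149), and Mcm5, a subunit of the replicative helicase, fell by 0.89. With the mean of a gene's probe sets, 8 rose and 1 fell, and the log2 fold changes were 0.67 for Pole2 and -0.52 for Mcm5. With a repeated quantile normalization 5 rose and 2 fell, and with 1 tumor left out 1 to 8 rose. Of 16 cell cycle inhibitors, Gadd45a, which no longer passed with a repeated quantile normalization or with any 1 tumor left out, rose by 0.93 (adjusted p = 0.0479), the antiproliferative gene Btg2 fell by 1.41 (adjusted p = 0.00567), and Rb1 fell by 0.53 (adjusted p = 0.0465). With 1 tumor left out Btg2 passed in 6 of 6 fits and Rb1 in 1, and the EpCAM+ plastic mean of Rb1 (5.37) was in the background range.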

How the data were processed

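Total RNA (10 ng per tumor) had been amplified, biotin-labelled and hybridized to Affymetrix mouse expression arrays of the perfect-match (PM) design, 1 per tumor. The authors deposited RMA log2 values for 45141 probe sets, already summarized and normalized between arrays. No RMA version was given. Values ran from 2.44 to 13.06, and RMA can compress the differences of dim probe sets. The deposited workbook of the authors' own comparison (fold changes and p-values) was not used.

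Platform annotation named 1 gene for 28898 probe sets, several for 551, and did not list 15692, which stay unnamed here. Symbols of 28689 were updated through the RefSeq gene table (GRCm38.p6) and 209 kept. Each gene was read from its brightest single-gene probe set. Groups came from the labels, with 3 arrays each, and the number of arrays limits the precision. limma 3.58.1 (R 4.3.3; lmFit and eBayes, 4 residual and 2.81 prior degrees of freedom, two-sided) was fitted on all probe sets, with Benjamini-Hochberg adjustment over them and a threshold of 0.05. The code was tested on simulated data. Background was the 95th percentile of 23 background probe sets.

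Over all genes, 906 rose and 326 fell (73.5% of calls higher); with a repeated quantile normalization 626 rose and 413 fell (60.3% higher). The genes and lists were chosen with earlier results of these data known. Full statistics were given for genes that passed, the 4 highest and the 4 lowest log2 fold changes, Mki67, Top2a, Cdk1 and Aurkb, and genes whose probe sets differed in sign or call; from other lists, up to 4 passing genes by smallest p. Anything outside this rule was named after its values were seen. Alternatives were a repeated quantile normalization, median centring, a background filter, the replicate number as a block, a trended robust prior, array weights, the mean of a gene's probe sets, a log2 fold change of at least 1, and leaving out each array.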

Additional observations from a re-analysis of the deposited data

How the results depend on the processing

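With 3 arrays per group, the count of mitotic genes that rose depended on single tumors. It was 5 as reported, 2 with a repeated quantile normalization, 3 with a log2 fold change of at least 1, 4 with the trended robust prior, 4 with the background filter (Incenp, Kif20b, Smc2 and Smc4, since Cep55 and Dsn1 were filtered out), 5 with median centring or the mean of a gene's probe sets, and 6 with array weights. Leaving out 1 array gave 2 to 5. The count over all 17097 genes also depended on single tumors, at 906 with all arrays and 183 to 830 with 1 left out. It was 1038 with array weights and 799 with the trended robust prior. None of the 40 fell under any of these settings. Their median log2 fold change (0.07) ran from -0.027 to 0.22 with 1 array left out. Of 13 alternative fits, Cep55 and Dsn1 passed in 11, Kif20b and Smc2 in 6 and Smc4 in 5. The fit with the background filter, 1 of the 13, did not test Cep55 and Dsn1.

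The labels do not say whether the replicate numbers pair the tumors. Same-numbered samples had correlations of deviations of -0.18, -0.37 and -0.01. With 3 arrays per group such correlations depend on each other and cannot settle the question. With the replicate number as a block, 0 of the 40 genes rose (adjusted p = 0.0586 for Cep55 and 0.0522 for Dsn1), and 307 probe sets rose and 176 fell, against 1856 and 843 without the block. A log2 fold change of at least 1 left 713 and 381, and leaving out 1 array 403 to 1774 higher and 173 to 853 lower.

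Signs turned for genes near 0. A repeated quantile normalization gave a log2 fold change of -0.012 for Mki67, -0.054 for Top2a, -0.069 for Tpx2 and -0.011 for Cdk1, and array weights 0.061 for Cdca8. With 1 array left out, the log2 fold change ran from -0.091 to 0.28 for Mki67, from -0.090 to 0.31 for Top2a, from -0.13 to 0.33 for Tpx2, from -0.12 to 0.21 for Cdk1, from -0.16 to 0.16 for Cdca8, from -0.23 to 0.067 for Hmmr and from -0.28 to 0.084 for Racgap1. The cause was not tested.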
